A study of Mus musculus with 22 samples.

Results

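The 9 keratin genes Krt5, Krt7, Krt8, Krt14, Krt18, Krt19, Krt20, Krt23 and Krt80 were taken by gene name from a table of transcript abundances with 54514 gene entries. All 9 were in the table, which held 54 keratin symbols in all. The values are TPM, a transcript abundance corrected for length and scaled to the same total in every library, so that levels of different genes can be set side by side within a library.

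The libraries came from mpkCCD cells, an immortalised line from the cortical collecting duct of the mouse kidney, grown on permeable supports and then held in serum-free medium that still contained dexamethasone. WT cells were kept without dDAVP (3 libraries) or with dDAVP, an agonist of the vasopressin V2 receptor (3 libraries). The GFP reporter lines C1, C11, C43 and C50 are labelled as mpkCCD cells too. All of them received dDAVP and are given as 2 fractions, GFP-negative and GFP-positive, with 2 libraries each, which makes 22 libraries in 10 groups. The labels do not say how the fractions were separated or how the lines were derived. Each reporter line is called a clone here, and a difference between clones rests on 1 line of each name. The labels give more than 1 dose and duration of dDAVP without tying them to libraries, and name neither the promoter in front of GFP nor separate cultures behind the replicates. The p-values therefore measure the spread between these libraries, which may be technical.

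The TPM keep no sequencing depth, so depth is unknown and replicate spread is the measure of precision. The number of genes above 0 TPM ran from 17177 to 20250 in 10 libraries and from 23135 to 31292 in the other 12, and both kinds occurred in both WT groups and in both GFP fractions. Of the 8 clone libraries with fewer genes 1 is the only one of C11, and of the 8 with more 1 is the only one of C1. With clone as a covariate each set therefore gives a fraction difference from 7 libraries of 3 clones, and the clones are not the same in both. The 2 GFP-negative libraries of C50 stood apart from each other, with 17677 genes above 0 in replicate 1 and 30045 in replicate 2. GFP followed the fraction labels, and the water channel Aqp2 followed the dDAVP label in WT cells. GFP was at most 0.79 TPM in WT cells, 5.31 to 17.6 TPM in GFP-negative and 1065 to 1567 TPM in GFP-positive libraries. Aqp2 was 64.1 to 74.9 TPM without and 2759 to 3025 TPM with dDAVP. In GFP-negative cells, all labelled as treated with dDAVP, Aqp2 was 72.6 and 66.5 TPM in C1, in the range of WT cells without dDAVP, and 263 and 236 TPM in C11. It was 1568 and 1679.8 TPM in C43 and 1232 and 1254 TPM in C50. GFP-positive libraries had 2008 to 7254 TPM of Aqp2.

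Keratins build the intermediate filaments of epithelial cells. A filament is made of pairs of an acidic type I chain and a basic type II chain, and a chain without a partner is degraded. Of the genes here, Krt5, Krt7, Krt8 and Krt80 encode type II chains, and Krt14, Krt18, Krt19, Krt20 and Krt23 encode type I chains. Simple, single-layered epithelia such as kidney tubules are known for Krt8 and Krt18, with Krt7 and Krt19 added in ducts, whereas the Krt5 and Krt14 pair marks the basal layer of stratified epithelia such as skin. Krt20 is known from intestinal and urothelial surface cells. Krt23 and Krt80 were placed in neither class.

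Keratins of simple epithelia made up nearly all keratin transcript, and the stratified pair was near 0. Krt18, Krt8, Krt19, Krt7 and Krt20 together held between 98.9% and 99.6% of the summed TPM of the 9 genes in every library. Krt5 and Krt14 held at most 0.00314%. Krt18 alone made up 53.0% to 62.6% of that sum, Krt8 20.5% to 25.2%, Krt19 5.89% to 14.6%, Krt7 4.80% to 7.16% and Krt20 2.30% to 5.55%. Krt18 ranked between place 3 and place 6 among all genes of a library, and Krt8 between 14 and 34. The 9 genes together amounted to 0.932% to 1.73% of all TPM, lowest in the WT cells without dDAVP.

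**Figure D1:**
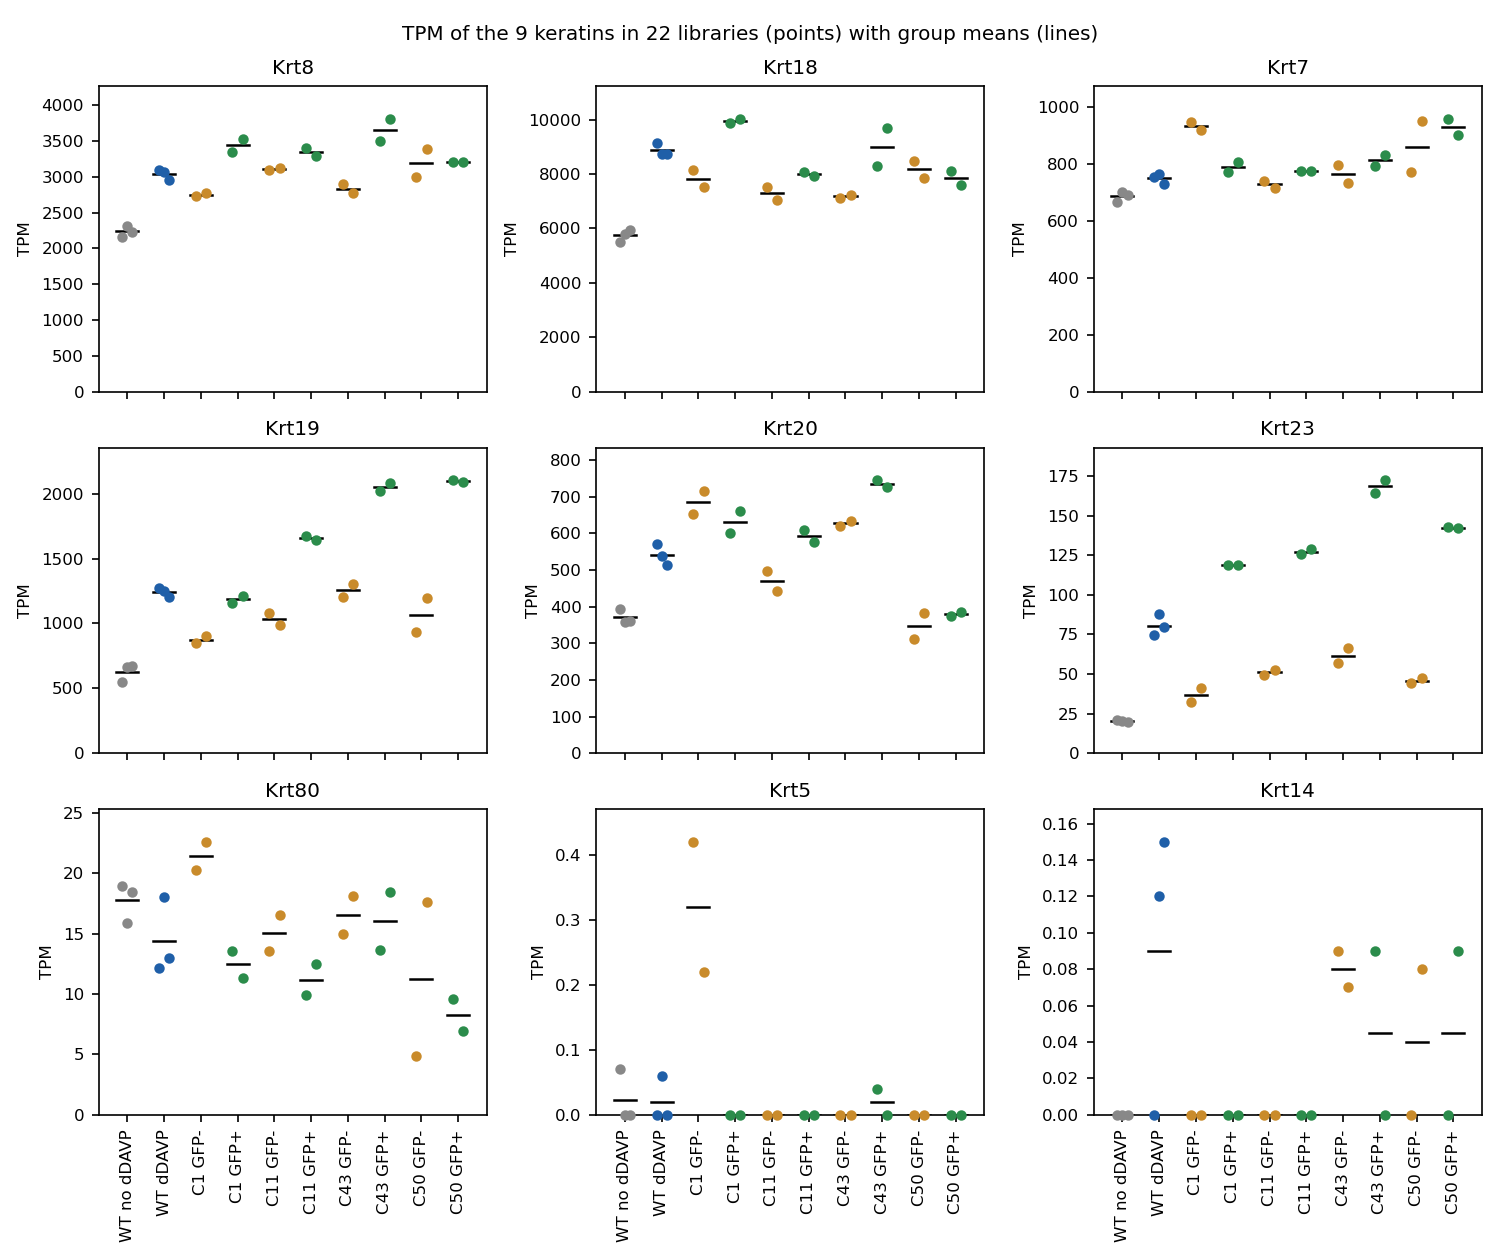
TPM of each of the 9 keratins (vertical axes, linear from 0, with a scale of its own in each panel) in the 10 groups. Points are single libraries and lines are group means; Krt23 is lowest without dDAVP (19.4 to 21.0 TPM) and highest in the GFP-positive fractions (119 to 172 TPM), while Krt5 and Krt14 stay below 1 TPM throughout.

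Krt5 and Krt14 were close to the bottom of the scale. Krt5 (ENSMUSG00000061527) was listed at 0 in 17 of 22 libraries. The GFP-negative fraction of C1 gave its highest values, 0.42 and 0.22 TPM, and was the only group in which both libraries were above 0. Krt14 (ENSMUSG00000045545) was listed at 0 in 15 of 22 libraries and reached 0.15 TPM at most, in WT cells with dDAVP. Neither gene passed the filter of a mean of 1 TPM, so neither was tested, and 7 of the 9 keratins remained for the tests below.

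Few of the 45 keratins outside the chosen 9 were present. Only Krt10, Krt17 and Krt88 reached a mean of 1 TPM in any group, 41 stayed below 1 TPM in every library, and 1 was at 0 throughout. Krt10, a type I keratin of the suprabasal skin layers, averaged 13.0 TPM over all libraries. It was lower in GFP-positive than in GFP-negative cells by -0.39 on the log2(TPM + 1) scale (limma adjusted p = 0.0111). Both other scalings described below ended that call of Krt10 (-0.32 and -0.30, limma adjusted p = 0.0775 and 0.124). Vimentin (Vim), the intermediate filament protein of mesenchymal cells, was never above 0.15 TPM.

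The first comparison asks how the keratins respond to dDAVP in WT cells. Krt23, Krt19, Krt18, Krt20 and Krt8 rose and none of the 7 tested keratins fell, with log2 changes from 0.44 (Krt8) to 1.94 (Krt23). These 5 of 7 keratins stand against 8.88% of all 13494 tested genes that changed, 2.37% higher and 6.51% lower (limma, adjusted p under 0.05). The median change of the 7 keratins was 0.54, and that of all tested genes was -0.16, on the log2(TPM + 1) scale used for all changes here. In 6 of the 7, Krt80 excepted, the libraries with and without dDAVP did not overlap, which was so for 35.8% of all tested genes. An exact permutation test of 3 against 3 libraries cannot go below p = 0.1 (two-sided), the value that each of these 6 gave. With other scalings the balance of calls over all genes moved from 26.7% higher to 63.7% (median-ratio scaling, median change of all genes -0.0012) or 54.1% (quantile normalization). The same 5 keratins were called higher under the former and 4 under the latter, where Krt18 fell short (limma adjusted p = 0.0641).

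The next comparison sets the GFP-positive against the GFP-negative fraction of each clone, all with dDAVP. Krt23 and Krt19 were higher in GFP-positive cells of every clone, and Krt8 and Krt18 were higher by a small amount over the 4 clones. None of the 7 tested keratins was called lower. The 4 called of 7 tested compare with 35.3% of 13113 genes called, 12.1% higher and 23.2% lower (limma with clone as a covariate). At an unadjusted p under 0.05, 5 of the 7 were higher, the fifth being Krt20. The share of all genes at that threshold was not counted. The median change of the 7 was 0.19, against -0.06 for all tested genes. After quantile normalization these medians were -0.019 and 0.015, so the keratin median depends on the scaling. The fractions did not overlap in any clone, in 1 direction, for Krt19 and Krt23 alone among the 7, and for 18.9% of all tested genes. Quantile normalization, which moved the balance of all calls from 34.2% to 50.5% higher, ended the call of Krt8 and turned that of Krt18. Median-ratio scaling (51.1% higher) ended the call of Krt18, with a larger change of 0.27 (limma adjusted p = 0.0686), and added Krt20 (log2 change 0.23, limma adjusted p = 0.0387).

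**Figure D2:**
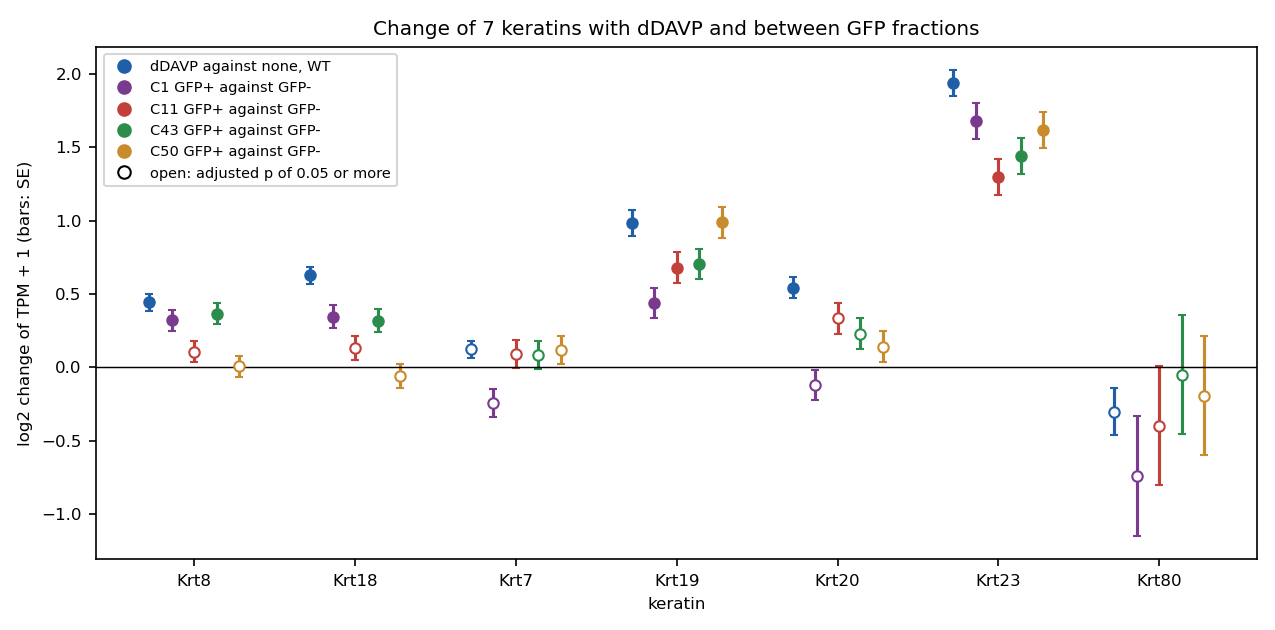
Log2 change of TPM + 1 (vertical axis) of the 7 tested keratins, with dDAVP in WT cells and between GFP fractions within each clone; bars are standard errors and open points have an adjusted p of 0.05 or more. Krt23 changed by 1.30 to 1.94 and Krt19 by 0.44 to 0.99 in all 5 contrasts, while Krt7 and Krt80 have open points throughout.

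Krt8 (ENSMUSG00000049382) and Krt18 (ENSMUSG00000023043) are the obligate pair of simple epithelia. Krt8 was 2161, 2314 and 2236 TPM without dDAVP and 3099.9, 3074 and 2956 TPM with it. Krt18 was 5507, 5802 and 5933 TPM without and 9154, 8740 and 8749 TPM with dDAVP. Every dDAVP library lay above every library without it for both genes, a 1.36-fold and a 1.54-fold difference of means. The log2 changes were 0.44 (SE 0.058, limma adjusted p = 0.00722) for Krt8 and 0.63 (SE 0.059, limma adjusted p = 0.00186) for Krt18. In the 4 WT libraries of the set with more genes above 0 the changes were 0.43 and 0.63, short of the threshold at that number of libraries (limma adjusted p = 0.133 and 0.0666).

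Between GFP fractions the libraries of both genes lay apart in C1, C11 and C43 and overlapped in C50. Krt8 was 2733 and 2771 TPM in GFP-negative against 3349 and 3531 TPM in GFP-positive cells of C1. In C43 it was 2893 and 2776 against 3501 and 3812 TPM. In C11 the values lay closer, 3090.4 and 3121 against 3405 and 3297 TPM. In C50 the GFP-positive libraries, 3207 and 3203 TPM, lay between the GFP-negative ones, 2996 and 3385 TPM. Krt18 had 8132 and 7535 TPM in GFP-negative against 9877 and 10031 TPM in GFP-positive cells of C1. In C43 it was 7129 and 7224 against 8293 and 9680.3 TPM, and in C11 7533 and 7057 against 8057 and 7931 TPM. In C50 the values were 8474 and 7858 against 8093 and 7592 TPM.

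Over the 4 clones the difference was 0.20 for Krt8 (SE 0.054, limma adjusted p = 0.00938, two-sided exact permutation p = 0.006173) and 0.19 for Krt18 (SE 0.059, limma adjusted p = 0.0238, exact permutation p = 0.01389). Within clones both genes passed in C1 (Krt8 0.32, Krt18 0.35) and C43 (0.37 and 0.32), with limma adjusted p between 0.00565 and 0.022. Neither passed in C11 (0.11 and 0.13) or C50 (0.01 and -0.06). The test of the interaction of fraction and clone did not reach the threshold for either (limma adjusted p = 0.247 and 0.246). The small differences depended on the scaling: after quantile normalization Krt8 changed by -0.04 (limma adjusted p = 0.683) and Krt18 was called lower, by -0.30 (limma adjusted p = 0.0127). Of 33 alternatives, 15 others ended the call of Krt18 and 5 others that of Krt8, among them leaving out clone C1 or C43 (Krt8 0.16 and 0.15, Krt18 0.13 and 0.14). With clone means as replicates, so that the clone is the unit, neither was called (limma adjusted p = 0.268 for Krt8 and 0.318 for Krt18). In the 8 clone libraries of the set with fewer genes above 0 the values were 0.28 and 0.24, and in the 8 of the set with more 0.11 and 0.11 (limma adjusted p between 0.214 and 0.366).

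The Krt18 to Krt8 ratio of TPM stayed within a narrow band, from 2.26 to 2.98 over all libraries. It was 2.51 to 2.65 without and 2.84 to 2.96 with dDAVP in WT cells. Krt8-ps, a pseudogene copy of Krt8, was listed at 129 to 250 TPM, between 5.82% and 7.14% of Krt8, and changed with it (0.56 with dDAVP and 0.27 between fractions, limma adjusted p = 0.0046 and 0.00187). Reads cannot be told apart well between so similar copies, so the separate values of Krt8 and Krt8-ps are uncertain. With both summed, 5 keratins were again called with dDAVP and 4 between fractions.

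Krt8 and Krt18 are neighbouring coding genes on chromosome 15, where Krt18 is the type I gene at the end of the type II cluster. The 250 bases before the start of each gene are shown because the pair moved together. They are RefSeq windows of the gene's own strand, build GRCm38.p6, at chr15:102004343-102004592 (minus strand) for Krt8 and chr15:102027966-102028215 (plus strand) for Krt18. Capitals mark exact matches, on either strand, to 1 of 6 short motifs. They are the TATA box, searched as TATAAA, the site of Sp1, searched as GGGCGG, and the site of Krueppel-like factors, searched as CACCC. The cyclic AMP response element (CRE) was searched as TGACGTCA. The AP-1 and NF-kB motifs were searched as well and are given by name.
Krt8: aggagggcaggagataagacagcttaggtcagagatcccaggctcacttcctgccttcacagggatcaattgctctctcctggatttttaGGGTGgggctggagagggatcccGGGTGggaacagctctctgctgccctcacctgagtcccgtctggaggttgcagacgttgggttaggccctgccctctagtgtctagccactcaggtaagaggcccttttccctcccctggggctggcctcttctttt
Krt18: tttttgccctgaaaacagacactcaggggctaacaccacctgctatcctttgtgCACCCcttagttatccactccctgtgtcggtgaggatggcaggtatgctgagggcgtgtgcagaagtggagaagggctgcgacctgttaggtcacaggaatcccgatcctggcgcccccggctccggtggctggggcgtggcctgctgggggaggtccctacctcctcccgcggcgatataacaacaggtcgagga
The Krt8 window held 2 CACCC matches, read as GGGTG on the strand shown, and the Krt18 window held 1, from 196 to 192 bases before the start. CACCC occurred in 52% of 32851 windows of this length, TATAAA in 12.4%, the AP-1 motif in 6.75%, TGACGTCA in 1.55%, GGGCGG in 32.7% and the NF-kB motif in 0.14%. A match is a run of letters and not an established binding site.

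Krt19 (ENSMUSG00000020911), a type I keratin of ducts, rose with dDAVP. It was 549, 662 and 674 TPM without and 1271, 1249.5 and 1201 TPM with dDAVP, 1.97 times the mean without it and with no overlap. On the log2 scale it rose by 0.99 (SE 0.089, limma adjusted p = 0.00165). Restricted to the 4 WT libraries of the set with more genes, it was 1.02 (limma adjusted p = 0.0372).

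In the clones Krt19 was higher in the GFP-positive fraction everywhere. It was 845.5 and 903 against 1157 and 1214 TPM in C1, and 1082 and 986 against 1673 and 1642 TPM in C11. It was 1207 and 1307 against 2018 and 2082 TPM in C43, and 934 and 1192 against 2103 and 2089.5 TPM in C50. No fraction overlapped its counterpart, and the GFP-positive fractions of C43 and C50 held the highest levels of all groups. The log2 change over the clones was 0.70 (SE 0.072, limma adjusted p = 4.65e-06), with an exact permutation p of 0.001543, the smallest that 4 clones of 2 against 2 libraries allow. Single clones gave 0.44 (C1), 0.68 (C11), 0.71 (C43) and 0.99 (C50), with limma adjusted p of 0.0263, 0.0026, 0.000996 and 6.75e-05. Their interaction term did not reach the threshold (limma adjusted p = 0.298). In the 8 clone libraries of the set with fewer genes it was 0.71 and fell short (limma adjusted p = 0.0831), and in the 8 of the other set it was 0.74 (limma adjusted p = 0.00216).

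Krt7 (ENSMUSG00000023039), a type II keratin found together with Krt19 in ducts, varied least of the 7, by 1.44-fold between its lowest and highest library. It was 667, 703 and 692 TPM without and 753, 765 and 729 TPM with dDAVP. The WT groups did not overlap, but the change of 0.13 (SE 0.058) did not pass the test over all genes (limma adjusted p = 0.191), and it was -0.00036 after quantile normalization. GFP-positive against GFP-negative cells differed by 0.01 (SE 0.061, limma adjusted p = 0.893). In the sets by genes above 0, Krt7 was 0.13 with dDAVP (more genes) and 0.04 and 0.01 between fractions (fewer and more), with limma adjusted p of 0.479, 0.902 and 0.918. In C1 the GFP-negative libraries, 949 and 920 TPM, were above the GFP-positive ones, 772 and 808 TPM, a change of -0.24 that did not pass (limma adjusted p = 0.184). In C11 the GFP-negative libraries had 742 and 716 TPM and the GFP-positive ones 777 and 776 TPM. In C43 the values were 798 and 735 against 794 and 832 TPM, and in C50 771 and 953 against 959 and 902 TPM.

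The balance of these ductal keratins moved with Krt19. The Krt19 to Krt7 ratio was 0.823 to 0.974 in WT cells without and 1.63 to 1.69 with dDAVP. It was 0.891 and 0.982 in GFP-negative against 1.498 and 1.503 in GFP-positive cells of C1, and 1.38 and 1.46 against 2.12 and 2.15 in C11. In C43 it went from 1.51 and 1.78 to 2.50 and 2.54, and in C50 from 1.21 and 1.25 to 2.19 and 2.32. These ratios of 2 chosen genes are given without a test. All type I over all type II keratins, in which the larger Krt18 and Krt8 dominate, ranged from 2.18 to 2.87. This ratio was 2.26 to 2.37 without and 2.75 to 2.87 with dDAVP in WT cells. GFP-negative and GFP-positive libraries were apart in C1 (2.48 and 2.61 against 2.76 and 2.84) and C11 (2.22 and 2.38 against 2.50 and 2.52). They overlapped in C43 and C50.

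**Figure D3:**
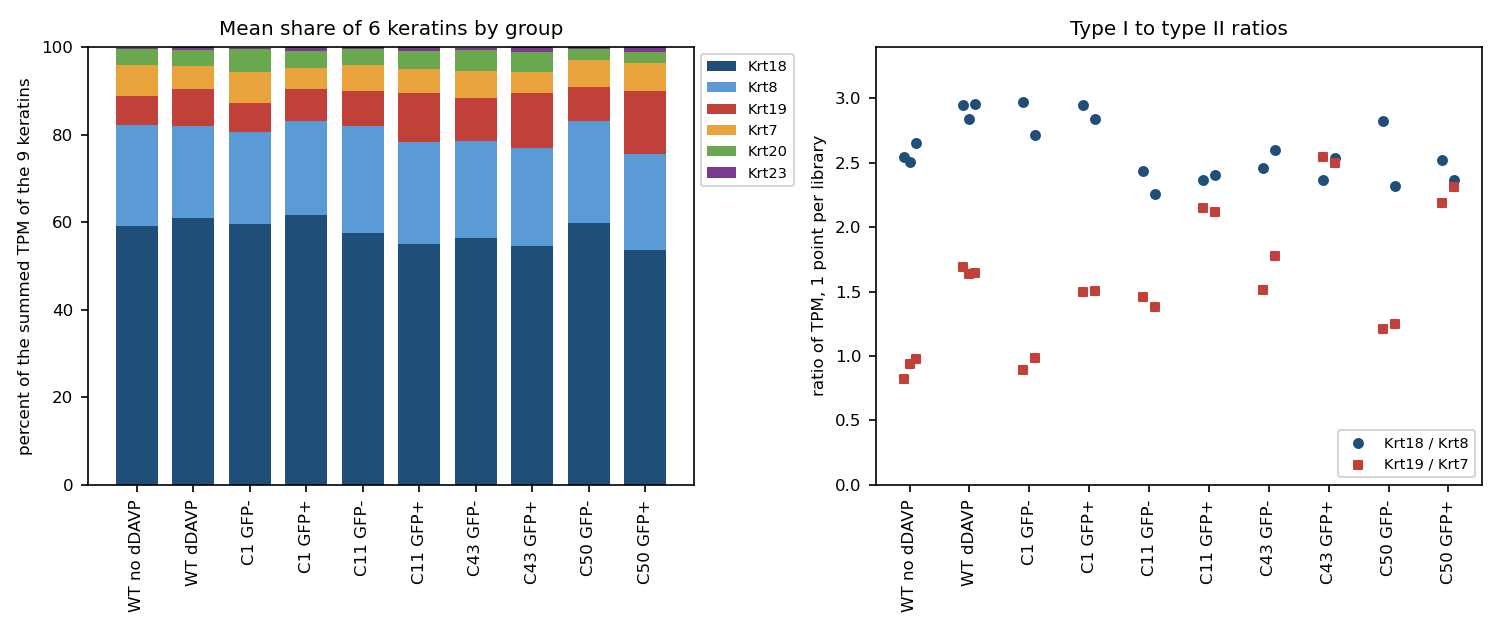
Left, mean share of each of 6 keratins in the summed TPM of the 9 (percent, stacked) by group; right, the Krt18 to Krt8 ratio (circles) and the Krt19 to Krt7 ratio (squares) of TPM in each library. Krt18 holds at least 53.0% of the sum in every library, and the squares lie higher with dDAVP than without and higher in the GFP-positive than in the GFP-negative fraction of each clone.

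Krt23 (ENSMUSG00000006777), a divergent type I keratin, showed the widest range of the abundant members and the largest change in both comparisons. It was 21.0, 20.3 and 19.4 TPM without and 74.7, 87.6 and 79.4 TPM with dDAVP, 3.98 times the mean without it. On the log2 scale it rose by 1.94 (SE 0.088, limma adjusted p = 8.03e-05), and all 18 alternatives kept it past the threshold, with 1.88 to 2.10.

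In each clone GFP-positive cells held more Krt23. It was 32.4 and 40.8 against 119 and 119 TPM in C1, and 49.5 and 52.7 against 125 and 129 TPM in C11. It was 56.7 and 66.4 against 165 and 172 TPM in C43, and 44.1 and 47.3 against 143 and 142 TPM in C50. The fraction means differed 3.25-fold in C1, 2.49-fold in C11, 2.74-fold in C43 and 3.12-fold in C50. Over the clones the log2 change was 1.51 (SE 0.070, limma adjusted p = 3.52e-09), with an exact permutation p of 0.001543, the smallest possible. Clone by clone it was 1.68, 1.30, 1.44 and 1.62 (limma adjusted p = 1.19e-05, 9.09e-05, 2.26e-05 and 6.54e-06). No interaction with clone was called for Krt23 (limma adjusted p = 0.516). All 33 alternatives kept the difference between fractions past the threshold, with 1.44 to 1.60. Those include the set with fewer genes (1.58, limma adjusted p = 0.0144) and the set with more (1.44, limma adjusted p = 0.00101).

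The order of the 10 groups by mean Krt23 had no overlap between neighbours. From the top it ran C43, C50, C11 and C1 GFP-positive, then WT with dDAVP, then C43, C11, C50 and C1 GFP-negative, then WT without dDAVP. The library ranges of all 9 neighbouring pairs in that order were apart. For Krt19 5 of 9 neighbouring pairs were apart, for Krt20 5, for Krt8 and Krt18 4 each, for Krt80 2, and for Krt7 and Krt5 1 each. For Krt14 none was apart. How many of all genes have such an order was not counted, so these counts describe the members only.

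Krt20 (ENSMUSG00000035775), a type I keratin of mature surface epithelium, rose with dDAVP and gave the smallest p of the 7 for a difference between clones. It was 394, 359 and 359.7 TPM without and 572, 538 and 514 TPM with dDAVP. The change was 0.54 (SE 0.072, limma adjusted p = 0.00722), with no overlap. In the 4 WT libraries of the set with more genes it was 0.48 and fell short (limma adjusted p = 0.12).

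GFP fractions did not differ in Krt20 past the threshold, with 0.15 over the clones (SE 0.067, limma adjusted p = 0.106). The set with fewer genes gave 0.07 and the set with more 0.23 (limma adjusted p = 0.812 and 0.108). In C1 the GFP-negative libraries had 654 and 717 TPM and the GFP-positive ones 601 and 660.4 TPM. In C11 the values were 498 and 443 against 611 and 576 TPM, and in C43 621 and 633 against 745 and 727 TPM. C50 was lowest, with 311 and 382 against 376 and 386 TPM. Without clone C1, the clone with the opposite order of its means, the change was 0.24 and passed (limma adjusted p = 0.0212). It also passed without GFP-negative replicate 2 or GFP-positive replicate 1 of that clone (0.18 each, limma adjusted p = 0.0415 and 0.0428).

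Krt20 and Krt23 are neighbouring coding genes on chromosome 11. Their windows are shown because the genes are adjacent and were called differently between GFP fractions. Over the 10 groups, which share a cell line, Pearson's r of their mean log2 levels was 0.41. The build is GRCm38.p6, at chr11:99438154-99438403 for Krt20 and chr11:99493121-99493370 for Krt23, both on the minus strand, and capitals mark the same 6 motifs.
Krt20: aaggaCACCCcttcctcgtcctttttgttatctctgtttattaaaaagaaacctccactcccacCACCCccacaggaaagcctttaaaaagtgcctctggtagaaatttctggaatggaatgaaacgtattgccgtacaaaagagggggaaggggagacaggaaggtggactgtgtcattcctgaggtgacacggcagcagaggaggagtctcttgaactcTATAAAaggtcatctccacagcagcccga
Krt23: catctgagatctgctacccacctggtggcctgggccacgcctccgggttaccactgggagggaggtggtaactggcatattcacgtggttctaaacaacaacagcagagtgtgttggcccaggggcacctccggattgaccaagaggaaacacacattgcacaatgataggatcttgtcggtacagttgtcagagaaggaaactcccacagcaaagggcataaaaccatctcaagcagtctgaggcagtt
The Krt20 window held TATAAA from 29 to 24 bases before the RefSeq start and 2 CACCC matches. The 50 bases after that start were not found in a GENCODE transcript of Krt20, unlike those of Krt8, Krt18 and Krt23, so its positions rest on RefSeq alone. None of the 6 motifs was in the Krt23 window, which says only that these letters are not there. Windows were found for 7 of the 9 keratins.

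Krt80 (ENSMUSG00000037185), a type II keratin, was the 1 tested keratin with lower means in both comparisons, and neither difference passed. It was 18.9, 15.9 and 18.4 TPM without and 12.2, 18.1 and 12.9 TPM with dDAVP (log2 change -0.30, SE 0.158, limma adjusted p = 0.236, two-sided exact permutation p = 0.2). Between fractions it was 20.3 and 22.6 against 13.6 and 11.4 TPM in C1, and 13.5 and 16.5 against 9.91 and 12.5 TPM in C11. It was 15.0 and 18.1 against 13.7 and 18.4 TPM in C43. In C50 the GFP-negative libraries disagreed, with 4.89 and 17.6 TPM, against 9.62 and 6.93 TPM in GFP-positive cells. The change over the clones was -0.34 (SE 0.194, limma adjusted p = 0.19). Single libraries decided the call: without dDAVP replicate 2 the WT change was -0.47 (limma adjusted p = 0.0468), and without GFP-negative replicate 1 of C50 the fraction change was -0.51 (limma adjusted p = 0.00618). Without clone C50 it was -0.40 (limma adjusted p = 0.0294). Between fractions Krt80 was 0.01 in the clone libraries of the set with fewer genes and -0.63 in those of the set with more (limma adjusted p = 0.985 and 0.0648). With dDAVP it was -0.17 in the WT libraries of the set with more genes (limma adjusted p = 0.66).

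Krt7, Krt8 and Krt80 each have an adjacent gene with a provisional symbol in the table, Gm671, Gm36026 and Gm35853, all with means of 2.67 to 5.49 TPM. Their strand and any overlap with the keratin gene were not examined, and no use of strand in the counting is stated in the sources used here. Whether reads of a keratin and its neighbour were kept apart is therefore not known. Gm35853 changed by -1.18 with dDAVP and 0.46 between fractions (limma adjusted p = 0.0302 and 0.00774), beside a Krt80 level below 23 TPM in every library.

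The third question is whether clones differ in their keratins and in the size of the fraction difference. Krt20, Krt19 and Krt23 differed between clones whatever the fraction (limma adjusted p = 2.2e-05, 0.000986 and 0.00222), 3 of 7 keratins against 28.0% of all tested genes. Krt20 set C50 (347 and 381 TPM as fraction means) below C1 (685 and 631 TPM) and C43 (627 and 736 TPM). Krt19 and Krt23 were lowest in C1. Krt80 fell short (limma adjusted p = 0.0885) but was called after median-ratio scaling and after quantile normalization (limma adjusted p = 0.0475 and 0.0332). Without clone C1 the call of Krt19 and that of Krt23 ended (limma adjusted p = 0.182 and 0.0628), and without C43 that of Krt23 (limma adjusted p = 0.0981). No keratin was called for the interaction of fraction and clone (limma), against 0.869% of all tested genes. Of the 7 keratins, 3 reached an unadjusted p under 0.05, a threshold at which all genes were not counted. Leaving out GFP-negative replicate 2 of C50 gave an interaction in 6 keratins, all but Krt23, and in 5038 genes in all, and leaving out replicate 1 gave it in Krt8 (limma adjusted p = 0.0385). In these fits the remaining library is assumed to vary like those of the other groups.

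Within single clones the counts of keratins called higher were 4 of 7 in both C1 and C43, and 2 of 7 in both C11 and C50. Of all genes 7.22% were called in C1 (2.31% higher, 4.91% lower) and 7.94% in C11 (2.23% higher, 5.70% lower). C43 had 16.3% of genes called (4.29% higher, 12.0% lower). C50 had 26.6% (12.8% higher, 13.8% lower). Krt19 and Krt23 were in all 4 sets, and Krt8 and Krt18 completed those of C1 and C43. No keratin was called lower in any clone.

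Beside WT cells with dDAVP, the GFP-positive fractions had 1.48 to 2.09 times the mean Krt23 level and the GFP-negative fractions 0.455 to 0.764 times. For Krt19 the multiples were 0.956 to 1.69 in GFP-positive and 0.705 to 1.01 in GFP-negative fractions. Krt18 was at 0.883 to 1.121 times the WT dDAVP level in GFP-positive and at 0.808 to 0.92 times in GFP-negative fractions. These are values side by side with no test, because reporter line, separation by GFP and GFP state cannot be told apart.

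Filament partners are the desmosomal and hemidesmosomal proteins that anchor keratin filaments at the membrane, the plakins that link them, and the chaperones and enzymes that turn them over. Of 31 listed genes 27 were tested. With dDAVP 4 of them fell and none rose (limma), against 6.51% of all genes lower. Among them were Evpl (-0.88), Dsc2 (-0.86) and, named after its values were seen, Lamb3 (-0.55), with limma adjusted p of 0.0299, 0.0144 and 0.0194. Evpl encodes envoplakin, Dsc2 is a desmosomal cadherin, and Lamb3 encodes a laminin chain under hemidesmosomes. The median change of the 27 was -0.27, against -0.16 for all genes. It was -0.11 after median-ratio scaling, where Lamb3 fell short (limma adjusted p = 0.0506).

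Between GFP fractions 8 of 27 partners were called, 1 higher and 7 lower. That is 29.6% of the list, below the 35.3% of all tested genes (12.1% higher, 23.2% lower). Desmoplakin (Dsp), which ties keratin filaments to desmosomes, was higher by 0.57 (limma adjusted p = 0.00605). Lamb3 (-1.63), the desmosomal cadherin Dsg2 (-0.63) and the desmosome-associated Perp (-0.55) were lowest among the called partners with a mean of at least 5 TPM (limma adjusted p = 1.6e-05, 0.00766 and 1.06e-05). Lama3, another laminin chain gene, changed by -1.64 at a mean of 2.42 TPM and is named after its values were seen. The median of the list was -0.10, against -0.06 for all genes, and it was -0.021 after median-ratio scaling and -0.013 after quantile normalization. The named partners kept their direction under both other scalings, whereas 4 partners were then called higher in place of 1.

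**Figure D4:**
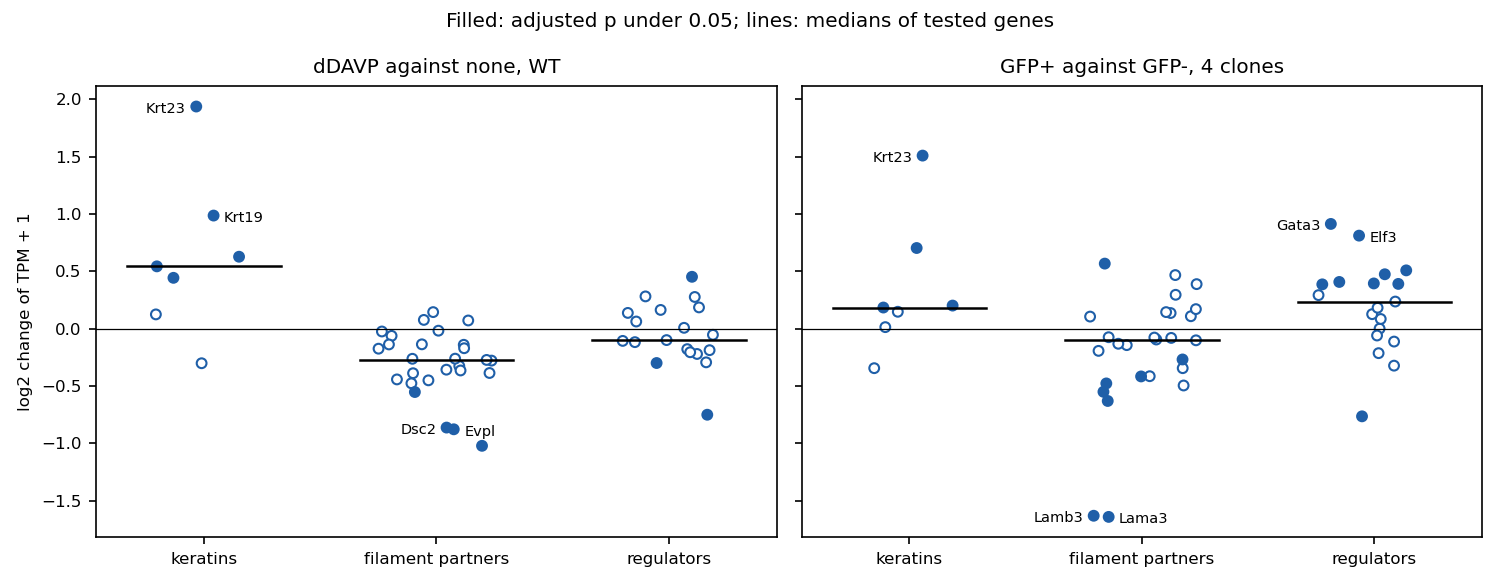
Log2 change of TPM + 1 (vertical axis) with dDAVP in WT cells (left) and between GFP fractions (right) for the tested keratins (7), filament partners (27) and regulators (19). Filled points have an adjusted p under 0.05 and lines are medians of the tested genes; the keratin median lies at 0.54 and 0.19, and the partner median at -0.27 and -0.10. After quantile normalization, not drawn, the right-hand medians were -0.019 and -0.013.

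Regulators are transcription factors with textbook links to epithelial keratin genes. Of 26 listed 19 were tested, and Trp63 and Klf4, factors of stratified epithelium, were among those below the filter. With dDAVP Cebpb rose (0.45, limma adjusted p = 0.0205), and Ets1 (-0.75) and Jun (-0.30) fell (limma adjusted p = 0.0222 and 0.0345), 3 of 19 against 8.88% of all genes. Jun fell short after median-ratio scaling (limma adjusted p = 0.385). Between GFP fractions 8 of 19 regulators were higher and 1 was lower, against 12.1% of all tested genes higher and 23.2% lower. Gata3, a factor of the collecting duct lineage that is also among the principal cell markers below, was higher by 0.91, the epithelial ETS factor Elf3 by 0.81 and Jun by 0.51 (limma adjusted p = 1.68e-05, 4.3e-06 and 0.0307). The AP-1 factor Fosl1 was lower by -0.76 (limma adjusted p = 9.37e-05). Jun fell short after quantile normalization (limma adjusted p = 0.161). The list's median was 0.24, against -0.06 for all genes.

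Markers of other cell types and the mitochondrial share of TPM moved with the same contrasts, and their part in the keratin differences was not tested. The mitochondrial share was 1.17% to 1.28% without and 1.29% to 1.51% with dDAVP in WT cells. It was higher in both GFP-positive than in both GFP-negative libraries of C11 (1.23% and 1.43% against 1.07% and 1.13%) and of C43 (1.84% and 1.91% against 1.45% and 1.5%), and the fractions overlapped in C1 and C50. Of 5 intercalated cell markers none reached 1 TPM in any group. Of 8 mesenchymal markers only Fn1 did, and the summed level of the list was 32.3 to 104 TPM in GFP-negative and 0.65 to 13.2 TPM in GFP-positive libraries. Of 11 squamous markers 2 or 3 reached 1 TPM in a group, with summed levels of 20.4 to 54.9 TPM in all libraries. The keratins Krt1, Krt4 and Krt13 of that list stayed below 1 TPM. Of 6 urothelial markers, 4 to 6 reached 1 TPM in a group. Their sum was 503 to 583 TPM without and 564 to 618 TPM with dDAVP, and it was 437 to 648 TPM in GFP-negative and 552 to 1130 TPM in GFP-positive libraries. Most of that sum was Upk1a, with 198 to 1086 TPM, and its members did not move alike. With dDAVP the members called, Upk3a (-1.21) and Upk3b (-0.60), were lower (limma adjusted p = 0.0272 and 0.0477), and Upk3b fell short under both other scalings. Between fractions Upk1a (1.15), Upk2 (1.00) and Upk1b (0.53) were higher and Psca (-3.43) was lower, with limma adjusted p of 2.31e-08, 8.78e-05, 0.0164 and 8.18e-08. These genes are named after their values were seen. Of 12 principal cell markers, 8 to 10 reached 1 TPM in a group, with sums of 2006 to 3865 TPM in GFP-negative and 5063 to 11967 TPM in GFP-positive libraries. In WT cells the sums were 2681 to 3057 TPM without and 5439 to 6100 TPM with dDAVP. Aqp2 is in this list and alone had 66.5 to 1680 TPM in GFP-negative and 2008 to 7254 TPM in GFP-positive libraries. In WT cells it had 64.1 to 74.9 TPM without and 2759 to 3025 TPM with dDAVP. The median log2 change of the 10 tested markers was -0.04 with dDAVP and 0.81 between fractions. Of the 6 cycling markers all reached 1 TPM, with sums of 1243 to 1267 TPM without and 856 to 1006 TPM with dDAVP. The cycling sums were 1051 to 1333 TPM in GFP-negative and 572 to 1018 TPM in GFP-positive libraries. In bulk libraries fewer cells of a type and less RNA per cell cannot be told apart.

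Likeness of pattern was read from Pearson's r of the mean log2 levels over the 10 groups, among 10206 genes with a mean of at least 5 TPM. Of these, other members and provisional symbols (Gm followed by digits, names ending in Rik, bare identifiers) were passed over in naming. The likeness is a description over groups that share a cell line and, in 9 of 10, the dDAVP treatment. The genes most like Krt23 were Paqr5 (0.97), B3gnt7 (0.96) and Spink8 (0.96). Those most like Krt19 were Cebpd (0.97), Bcat1 (0.96) and Ube2j1 (0.95). Krt8 was most like its copy Krt8-ps (0.98), then Spink8 (0.95) and Scp2-ps2 (0.90). Krt18 had Isg20 (0.86), Ethe1 (0.86) and Avpi1 (0.85), and Krt20 had Fetub (0.92), Ifit3b (0.91) and Ifit3 (0.90). Krt7 had Pitpna (0.91), Aldoc (0.82) and Aldoa (0.80), and Krt80 had Pfn2 (0.95), Lsg1 (0.92) and Abhd10 (0.91). Among the keratins r was 0.94 for Krt19 with Krt23, 0.85 for Krt8 with Krt18 and 0.40 for Krt7 with Krt19. Aqp2 gave 0.90 with Krt23 and 0.89 with Krt19, and -0.62 with Krt80.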

How the data were processed

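RNA of 22 libraries in 10 groups was sequenced after SMART-Seq HT amplification and Nextera XT tagmentation, per the labels' protocols. The deposited values are TPM per gene; the submitters' processing notes name STAR and RSEM, and the genome build and annotation are not given in the sources used here. Group means and ratios of group means computed by the authors stand in the same table and are not used here, nor is 1 column of line maxima. The members and gene lists were chosen with earlier results of these data known.

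Lines sharing a symbol (980 lines, 79 symbols) were summed. Changes were fitted with limma 3.58.1 (R 4.3.3, statmod 1.5.0; trended variance) on log2(TPM + 1), for genes with a mean of at least 1 TPM over the libraries compared, and p-values were Benjamini-Hochberg adjusted over all genes. The WT fit used the 6 WT libraries. The fraction fit used the 16 clone libraries with clone as a covariate, and an interaction and clone terms were tested in the same libraries. A fold on this scale understates changes of low genes. Exact permutation tests were two-sided, within clones for the fractions.

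Of partners, regulators and other keratins the text names those called with a mean of at least 5 TPM and the 3 largest changes in each direction per comparison, with exceptions marked. One gene that the rule names is not reported here. For likeness of pattern the 3 genes with the highest r are named, other members and provisional symbols being passed over. The fits were tested on simulated data. No 2 libraries were identical. Alternatives covered the pseudocount, filter, scaling, covariates, the replicate block, library sets and left-out libraries and clones. The sum of Krt8 and Krt8-ps was chosen after seeing the data.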

Additional observations from a re-analysis of the deposited data

How the results depend on the processing

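Krt23 kept its direction and call in both comparisons under all alternatives run, and Krt19 in all 18 with dDAVP and in 32 of 33 between fractions, the exception being the libraries with fewer genes detected. The count of all genes called with dDAVP was 1198, and became 442 with all genes above 0 tested, 691 without the variance trend, 2694 with genes detected as a covariate, 779 in a fit of all 22 libraries, 101 in the 4 libraries with more genes detected and 314 to 2038 with 1 library left out. Keratins called went from 5 to 2 in those 4 libraries and were 5 to 6 with 1 library left out. Between fractions 4626 genes and 4 keratins were called. With clone means as replicates it was 1807 genes and 2 keratins, in libraries with fewer genes detected 250 and 1, in those with more 2 keratins, without clone C43 2 keratins, and with 1 library left out 3 to 5 keratins. For the interaction, 114 genes became 234 after quantile normalization, 13 without clone C1, 39 without C11 and 42 to 5038 with 1 library left out, with 0 to 6 keratins. Between clones, 3669 genes and 3 keratins became 975 and 1 without C1, and 2744 to 5889 genes with 1 library left out. Under each of the other scalings 4 keratins were called between clones, with Krt80 added. The cause was not tested, except that fewer libraries enter the fits on subsets.

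Quantile normalization turned Krt7 with dDAVP (-0.00036) and, between fractions, Krt7 (-0.019), Krt8 (-0.0351) and Krt18 (-0.30). Krt7 between fractions, 0.01 in all libraries, also turned without clone C11 (-0.0123), C43 (-0.0106) or C50 (-0.0213) and ranged from -0.0236 to 0.0427 with 1 library left out. Krt80 between fractions was 0.0141 in libraries with fewer genes detected.

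The labels do not say whether equal replicate numbers mark paired libraries. Same-numbered WT libraries had deviations correlated at -0.208, -0.0254 and -0.109, and WT libraries of unequal number at -0.131 to 0.241. In the clones the values were 0.0544 (C1), 0.0151 (C11), 0.203 (C43) and 0.0825 (C50), with a mean of 0.0888. These values do not settle whether same-numbered libraries shared a culture or a day. With the replicate block 122 genes and 2 keratins were called with dDAVP, 4259 genes and 3 keratins between fractions and 11 genes for the interaction. With the block, the dDAVP calls of Krt8, Krt18 and Krt20 fell short (limma adjusted p = 0.0925, 0.0566 and 0.0653).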
